A study of Mus musculus with 6 samples.

Results

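The genes described here carry out fat storage and fat release in fat cells. The 10 genes of the list were Cidec, Lipe, Adrb3, Lpl, Cd36, Fabp4, Acsl1, Gpd1, Dgat1 and Car3, and a probe set (the group of short probes that reports 1 transcript) was taken wherever the platform annotation named 1 of them and no other gene. This gave 12 probe sets for 8 of the 10 genes, out of 8251 genes named this way on the array. Adrb3 and Acsl1 had 0 such probe sets and were not analysed here. The RNA came from thoracic mammary glands of virgin F1 CF-1/FVB mice, 16 weeks old, which carried a transgene that overexpresses luteinizing hormone (LH) or were wild type. LH is the pituitary hormone that drives sex steroid production by the gonads, and the labels do not name the promoter of the transgene. Each genotype had 3 Affymetrix arrays, and each array received RNA pooled from 3 different mice, so that 18 mice were used. The deposited signals are on a linear scale, are scaled so that each array has a trimmed mean of 1500.8 or 1500.9, and compare 1 probe set between arrays but not different probe sets with each other.

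Fat cells hold triglyceride in a large droplet. Fatty acids are freed from blood lipoproteins by Lpl, enter through Cd36, are carried by Fabp4 and, after activation, are joined to glycerol 3-phosphate, which Gpd1 supplies, with Dgat1 adding the last acyl chain. Cidec holds lipid droplets together and lets them fuse, and Lipe, under adrenergic and insulin control, splits stored fat when energy is needed. In the mammary gland these cells form the fat pad into which the epithelium grows, and alveolar cells of the pregnant and lactating gland make fat too and secrete it into milk.

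The comparison asked how these genes differ between LH transgenic and wild type glands. Cidec, Lipe, Dgat1 and the brighter probe sets of Gpd1 and Lpl had a lower signal in LH transgenic glands. They ran from 3.33-fold lower for Cidec to 1.53-fold lower for the brighter Lpl probe set. The dimmer probe sets of Gpd1 (log2 difference -0.23) and Lpl (log2 difference 0.29) were not called. With all probe sets of a gene averaged, only Cidec and Lipe of the members were called lower, where 11.2% of all genes were. Cidec and Lipe have 1 probe set each, so averaging could not alter their values. Dgat1, Gpd1 and Lpl each had a dimmer probe set averaged in and were not called. Cd36 and Fabp4 were lower by smaller amounts that did not pass the test, and Car3 differed by less than the spread between pools. None of the tested member probe sets was called higher, where 10.5% of all tested probe sets were. Of the 12 probe sets, 10 were bright enough to be tested (a mean signal of at least 336.0), and 5 of these 10 fell at a Benjamini-Hochberg adjusted p under 0.05 by limma, where 10.8% of all 7455 tested probe sets fell and 21.3% changed in either direction. The median log2 difference of the 10 was -0.55, beside 0.023 over all tested probe sets. Each difference is the LH transgenic mean less the wild type mean of log2(signal + 80.0). For 6 of the 10, every LH transgenic pool lay below every wild type pool, against 19.8% of all tested probe sets. On the scale of the bacterial controls, 9 of the 10 were called lower, where 50.7% of all tested probe sets were. The median over all probe sets was -0.639 on that scale. In RNA of whole glands, fewer fat cells, less RNA per fat cell and a larger share of RNA from other cells cannot be told apart.

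Skeletal muscle markers set LH transgenic pool 3 apart. Their summed signal was 28547 and 32948 in LH transgenic pools 1 and 2, but 111299 in pool 3 and 122785 to 140705 in wild type pools. Without LH transgenic pool 3 the same 5 member probe sets were called lower, beside 12% of all tested probe sets. The differences were -1.56 for Cidec, -1.31 for Lipe, -1.03 for Dgat1, -0.60 for the brighter Lpl probe set and -0.50 for the brighter Gpd1 probe set.

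**Figure D1:**
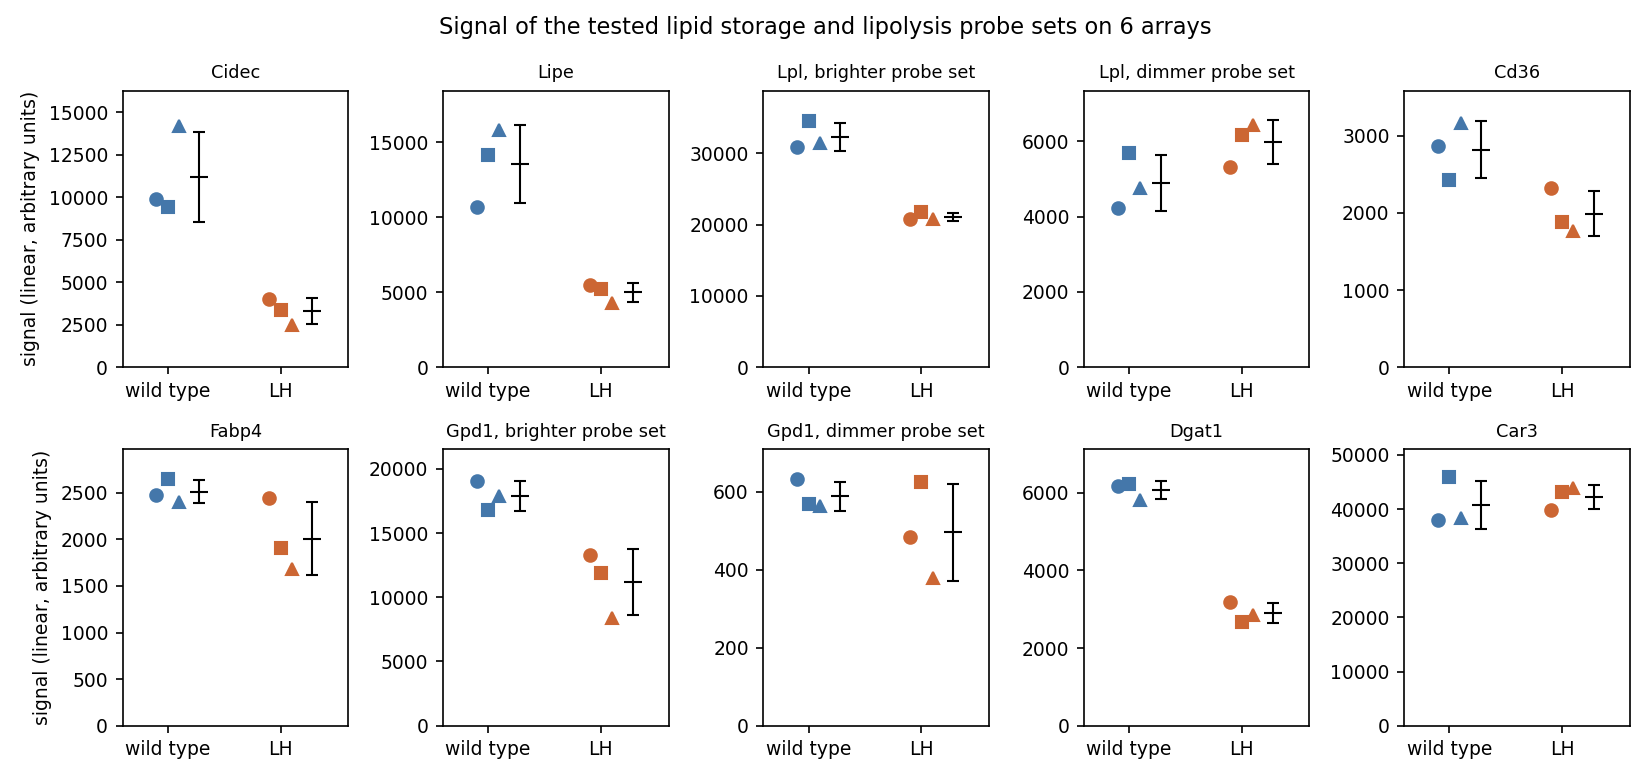
Signal (linear, arbitrary units) of the 10 tested probe sets in 3 wild type (blue) and 3 LH transgenic (orange) pools, with circles, squares and triangles for pools 1, 2 and 3 and a black bar for mean ± SD. Cidec, Lipe, Dgat1, the brighter probe sets of Lpl and Gpd1, and Cd36 have every LH transgenic pool below every wild type pool, and the other 4 panels overlap.

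Cidec, a protein that holds lipid droplets together and lets them fuse into a single large one, had signals of 9924.5, 9425 and 14224 in wild type pools 1, 2 and 3 and of 4018, 3390 and 2512 in LH transgenic pools 1, 2 and 3. All LH transgenic pools lay far below the lowest wild type pool, and wild type pool 3 was the highest. The mean fell from 11191 ± 2638 to 3306 ± 757 (SD, n = 3), a log2 difference of -1.74 (SE 0.205, adjusted p 0.000724). The change was the largest among the 10 tested member probe sets.

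Lipe encodes hormone-sensitive lipase, which splits diacylglycerol in the release of stored fat. Its signals were 10688.5, 14131 and 15848 in the wild type pools and 5481, 5206 and 4302 in the LH transgenic pools. The groups stood well apart, although wild type pool 1 was lower than the other wild type pools. The mean fell from 13556 ± 2628 to 4996 ± 617 (SD, n = 3), a log2 difference of -1.41 (SE 0.167, adjusted p 0.000724), or 2.67-fold. Adrb3, the adrenergic receptor that activates Lipe in mouse fat cells, was not analysed here.

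RefSeq's promoter table for GRCm38.p6 held 4 of the 10 listed genes, among them the measured genes Cidec, Lipe and Cd36. The bases before the start site furthest upstream are shown for these 3, because Cidec and Lipe fell together and Cd36 was lower in all LH transgenic pools. The windows of 250 bases are chr6:113435761-113436010 for Cidec, chr7:25395988-25396237 for Lipe and chr5:17835897-17836146 for Cd36, all on the minus strand and written 5′ to 3′ toward the gene. Capitals mark matches on either strand to AGGTCA (the half-site of nuclear receptors such as PPARγ), TTGCNNAA (a C/EBP pattern) or TATAAA (the TATA box).
Cidec: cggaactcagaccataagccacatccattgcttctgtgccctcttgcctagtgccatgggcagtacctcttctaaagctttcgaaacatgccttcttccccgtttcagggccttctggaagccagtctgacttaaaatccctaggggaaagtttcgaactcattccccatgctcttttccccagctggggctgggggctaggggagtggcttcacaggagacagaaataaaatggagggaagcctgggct
Lipe: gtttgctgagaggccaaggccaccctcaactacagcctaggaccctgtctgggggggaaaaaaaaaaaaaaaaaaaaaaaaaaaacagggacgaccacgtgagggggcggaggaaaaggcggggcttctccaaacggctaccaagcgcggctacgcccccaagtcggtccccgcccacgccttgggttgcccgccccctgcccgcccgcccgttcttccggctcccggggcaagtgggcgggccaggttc
Cd36: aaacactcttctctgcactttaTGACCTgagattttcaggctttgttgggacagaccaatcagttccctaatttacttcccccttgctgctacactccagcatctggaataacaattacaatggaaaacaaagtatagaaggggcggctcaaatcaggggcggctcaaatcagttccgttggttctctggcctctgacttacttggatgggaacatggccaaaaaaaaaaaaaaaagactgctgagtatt
A single match was found in these windows, an AGGTCA read on the other strand that spans bases 228 to 223 before the Cd36 start. No motif overlapped another in them. Of 32851 windows of the same length in the table, 14.0% held AGGTCA, 9.56% held TTGCNNAA and 12.4% held TATAAA. Both Cidec and Lipe have a further start site in the table, and the window of the other Cidec start held 1 TTGCNNAA match. A match is only a run of letters, and no binding was measured.

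Around Cidec, the lipid droplet genes moved in both directions. Of 7 tested genes of droplet coat and formation, taken by the brightest probe set of each gene, 3 fell and 1 rose, where 11.6% of 5732 genes fell and 9.93% rose, and the median difference was -0.29 beside 0.009 over all genes. Plin4, a droplet coat protein of fat cells, fell from 14352 ± 2122 to 4628 ± 539 (log2 -1.61, adjusted p 0.000268), and Bscl2, seipin, which shapes new droplets, from 6198 ± 689 to 3928 ± 738 (log2 -0.66). Cavin1, a caveola protein abundant in fat cells, fell from 25191 ± 2597 to 8498 ± 4265 (log2 -1.71), but a dimmer probe set of Cavin1 had 0.32 and the mean of all its probe sets lost the call (-0.69, adjusted p 0.0646). Plin2, a droplet coat protein found in most cells and on milk fat globules, rose from 31728 ± 5531 to 60280 ± 877 (log2 0.94, adjusted p 0.00162). Bscl2 lost its call when LH transgenic pool 1 or either of wild type pools 1 and 2 was left out (adjusted p 0.0579, 0.0734 and 0.0514), and without LH transgenic pool 1 or 3 a further gene of the group rose. Plin2 lost its call on the scale of the bacterial controls (log2 0.23, adjusted p 0.327).

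Around Lipe, 9 of 12 tested genes of lipolysis and its control fell and none rose, where 11.6% and 9.93% of all genes did. The median difference of the 12 was -0.84. By limma without adjustment, 2 of these genes were higher at p under 0.05. Pnpla2, the lipase that opens triglyceride breakdown before Lipe acts, fell from 38811 ± 3659 to 19648.5 ± 3976 (log2 -0.996, adjusted p 0.00299). Mgll, which splits the last acyl chain after Lipe, fell from 11890.5 ± 615 to 5777 ± 1559 (log2 -1.07, adjusted p 0.00477), and was not called with all its probe sets averaged (-0.51, adjusted p 0.089). Pnpla2, Lipe and Mgll act in this order, and all 3 had every LH transgenic pool below every wild type pool. Akt2, an insulin-signalling kinase (-1.39), Gnai1, an inhibitory G protein subunit (-1.11), and the carboxylesterase Ces1d (-2.90) fell as well. Abhd5, the activator of Pnpla2, had 5066, 5596 and 3332 in wild type and 8283, 5861 and 6475 in LH transgenic pools (log2 0.57, adjusted p 0.0782), a gene outside the naming rule chosen after its values were seen. Without LH transgenic pool 3, 1 gene of the group rose.

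Lpl, the enzyme that frees fatty acids from blood lipoproteins at the capillary wall, gave different answers by probe set. The brighter probe set had 30979, 34611 and 31522 in the wild type pools and 20805, 21784 and 20830 in the LH transgenic pools. The LH transgenic pools lay close together and below all wild type pools, and the mean fell from 32371 ± 1959 to 21140 ± 558 (log2 -0.61, SE 0.105, adjusted p 0.00383). The dimmer probe set had 4213, 5684 and 4753 against 5312, 6158 and 6440. The groups overlapped there, with means of 4883.5 ± 744 and 5970 ± 587 (log2 0.29, 95% interval -0.04 to 0.62, adjusted p 0.192), and the sign turned on the scale of the bacterial controls (-0.40). The log2 differences of the probe sets were 0.90 apart, and their within-array difference separated the genotypes without overlap. A two-sided exact permutation test gave p = 0.1, the smallest that 3 arrays against 3 allow. That test could not pass the threshold whatever the values, so no conclusion is drawn from it. With all probe sets of Lpl averaged, the difference was -0.16 and was not called (adjusted p 0.384).

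Cd36, a fatty acid translocase of fat, muscle, endothelium and macrophages, had 2866, 2432 and 3161 in the wild type pools and 2319, 1880 and 1766.5 in the LH transgenic pools. No LH transgenic pool reached the lowest wild type pool, but the gap between the groups was small. The means were 2820 ± 367 and 1988 ± 292 (log2 -0.49, SE 0.156, adjusted p 0.052), just short of the threshold. It passed under median centring, a stricter filter, robust eBayes and without LH transgenic pool 1 (adjusted p 0.0476, 0.0425, 0.0491 and 0.0432), and on the scale of the bacterial controls (-1.17, adjusted p 0.000178). It did not pass in the other 13 settings, with an adjusted p of 0.0503 to 0.255, the highest with its probe sets averaged (-0.25) and 0.141, 0.172, 0.116 and 0.1 without wild type pool 1, wild type pool 3, LH transgenic pool 2 and LH transgenic pool 3. Its other probe set had signals of 3.8 to 9.3 on the 6 arrays and was not tested.

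Fabp4, the fatty acid binding protein of fat cells, also made by macrophages and capillary endothelium, had 2480, 2648 and 2404 in the wild type pools and 2440, 1902 and 1681 in the LH transgenic pools. LH transgenic pool 1 lay within the wild type range and the other LH transgenic pools below it. The means were 2511 ± 125 and 2008 ± 390 (log2 -0.33, 95% interval -0.68 to 0.02, adjusted p 0.172). The interval reaches from a fall larger than that of the brighter Lpl probe set to no change.

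Among 11 other tested genes of fatty acid uptake and carriage, 2 fell, 1 rose and 8 were not called, with a median difference of 0.02. Of all tested genes, 11.6% fell and 9.93% rose. On the scale of the bacterial controls 6 of the 11 fell, where 50.7% of all tested probe sets did. Fabp3, the form of Fabp4's family found in heart, muscle and lactating gland, rose from 4831 ± 3437.5 to 34177 ± 9826 (log2 3.04, adjusted p 0.00252), and lost its call in the fit with muscle level as covariate (2.66, adjusted p 0.0603). Fabp5, its relative in skin and many other cells, fell from 2214 ± 498 to 1265 ± 257 (log2 -0.77, adjusted p 0.0227). Fabp5 was no longer called when wild type pool 1 or LH transgenic pool 1 was left out (adjusted p 0.084 and 0.0514). Scp2, a lipid carrier of peroxisomes, fell by 1.05 on the log2 scale. Fabp1, Fabp2 and Fabp7 of the same family had mean signals under 336.0 and were not tested.

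Dgat1, which joins the last acyl chain to diacylglycerol to form triglyceride, had 6190, 6220 and 5816.5 in the wild type pools and 3184, 2683 and 2844 in the LH transgenic pools. Both groups were tight and far apart. The mean fell from 6075.5 ± 225 to 2904 ± 256 (log2 -1.05, SE 0.123, adjusted p 0.000718), or 2.07-fold. A dim probe set of Dgat1 had signals of 88.4 to 385 on the 6 arrays, with overlap between groups, and was not tested. Averaging it with the bright one gave -0.42 and no call (adjusted p 0.2).

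Gpd1, the cytosolic glycerol 3-phosphate dehydrogenase, had 19051, 16758.5 and 17860 in the wild type pools and 13326, 11852 and 8361 in the LH transgenic pools on its brighter probe set. LH transgenic pool 3 was the lowest of all 6, and the groups did not overlap. The mean fell from 17890 ± 1146 to 11180 ± 2550 (log2 -0.70, SE 0.169, adjusted p 0.0172). The call was lost without wild type pool 1 (-0.65, adjusted p 0.0631), without wild type pool 3 (-0.70, adjusted p 0.057) and with the probe sets of Gpd1 averaged (-0.47, adjusted p 0.071). The dimmer probe set had 632, 568 and 563 against 485, 624 and 378, with overlap (log2 -0.23, 95% interval -0.69 to 0.22, adjusted p 0.449). As for Lpl, the within-array difference of the probe sets separated the genotypes without overlap. The log2 difference of the brighter probe set less that of the dimmer was -0.46. The two-sided exact permutation test gave p = 0.1, the smallest possible, and again could not pass, so it decides nothing. The difference of the dimmer probe set also depended on the pseudocount. It was -0.27 with a floor in its place and -0.16 with a larger pseudocount, against -0.70 and -0.69 for the brighter probe set.

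Of 12 other tested genes of triglyceride and phosphatidate synthesis, 4 fell, 1 rose and 7 were not called, with a median difference of -0.44. Over all tested genes, 11.6% fell and 9.93% rose. On the scale of the bacterial controls 8 of the 12 fell, where 50.7% of all tested probe sets did. Gpam, which adds the first acyl chain to glycerol 3-phosphate, fell from 9920 ± 672 to 5230 ± 704 (log2 -0.92, adjusted p 0.00192). Pck1, which makes glycerol 3-phosphate precursors in fasting fat cells, fell from 7230 ± 2639 to 2946 ± 321 (log2 -1.22, adjusted p 0.00591), and the phosphatase Lpin1 from 4550 ± 222 to 2955 ± 336 (log2 -0.61, adjusted p 0.0102). Lpin1 lost its call in the fit with muscle level as covariate (-0.44, adjusted p 0.138). Acsl4, a fatty acid activating enzyme related to Acsl1, rose from 1491 ± 186 to 4396 ± 178 (log2 1.52, adjusted p 0.000263). The genes for the first step (Gpam) and the last step (Dgat1) both fell, and 0 probe sets named Dgat2 or Agpat2 alone.

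**Figure D2:**
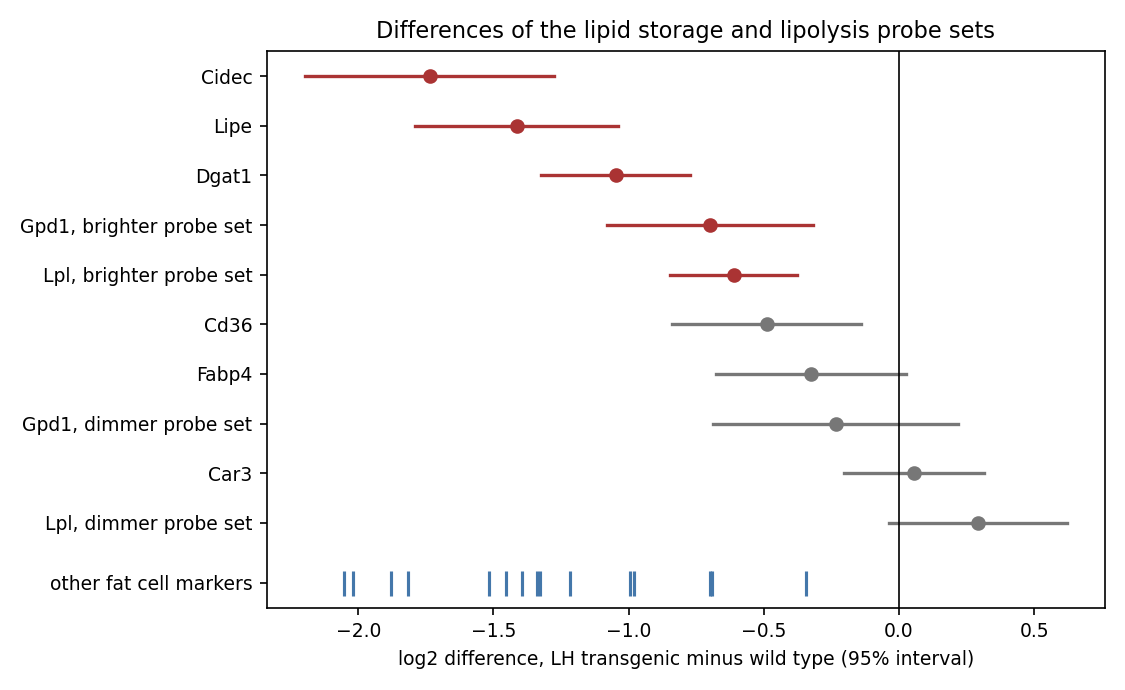
Log2 difference, LH transgenic minus wild type, with its 95% interval for each tested member probe set, red where called lower and grey where not called; blue ticks are the 15 tested fat cell markers outside the list. Differences run from -1.74 for Cidec to 0.29 for the dimmer Lpl probe set, and the fat cell markers from -2.05 to -0.34.

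Car3, a carbonic anhydrase that is among the most abundant proteins of fat cells and of slow muscle fibres, had 38001, 45962 and 38393 in the wild type pools and 39790, 43094 and 43889.5 in the LH transgenic pools. All LH transgenic values lay within the wild type range. The means were 40785 ± 4487.5 and 42258 ± 2174 (log2 0.06, 95% interval -0.20 to 0.31, adjusted p 0.778), and the sign turned after quantile normalization (-0.22, adjusted p 0.0971) and on the scale of the bacterial controls, where Car3 was called lower (-0.65, adjusted p 0.00774). A fall of the size seen for Dgat1 lay outside the interval on the main scale.

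Among 4 other tested carbonic anhydrases, 2 rose and 1 fell, where 9.93% of all tested genes rose and 11.6% fell. Car2, the widespread cytosolic form, rose from 6809 ± 2217 to 21794 ± 2901 (log2 1.72, adjusted p 0.00132). Car6, the secreted form, rose from 273 ± 230 to 812 ± 236 (log2 1.56, adjusted p 0.0443). The Car6 call did not hold when any LH transgenic pool or either of wild type pools 1 and 3 was left out (0.95 to 1.75 in these fits), nor with muscle level as covariate, a floor in place of the pseudocount, no filter, arrayWeights, or eBayes made robust or run without a trend. Car4, the membrane form of capillaries, fell from 1866 ± 120 to 888 ± 439 (log2 -1.10, adjusted p 0.0183), and lost its call when LH transgenic pool 2 or either of wild type pools 1 and 3 was left out (adjusted p 0.0544, 0.0566 and 0.0651). Its dimmer probe set had -0.26 and was not called.

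**Figure D3:**
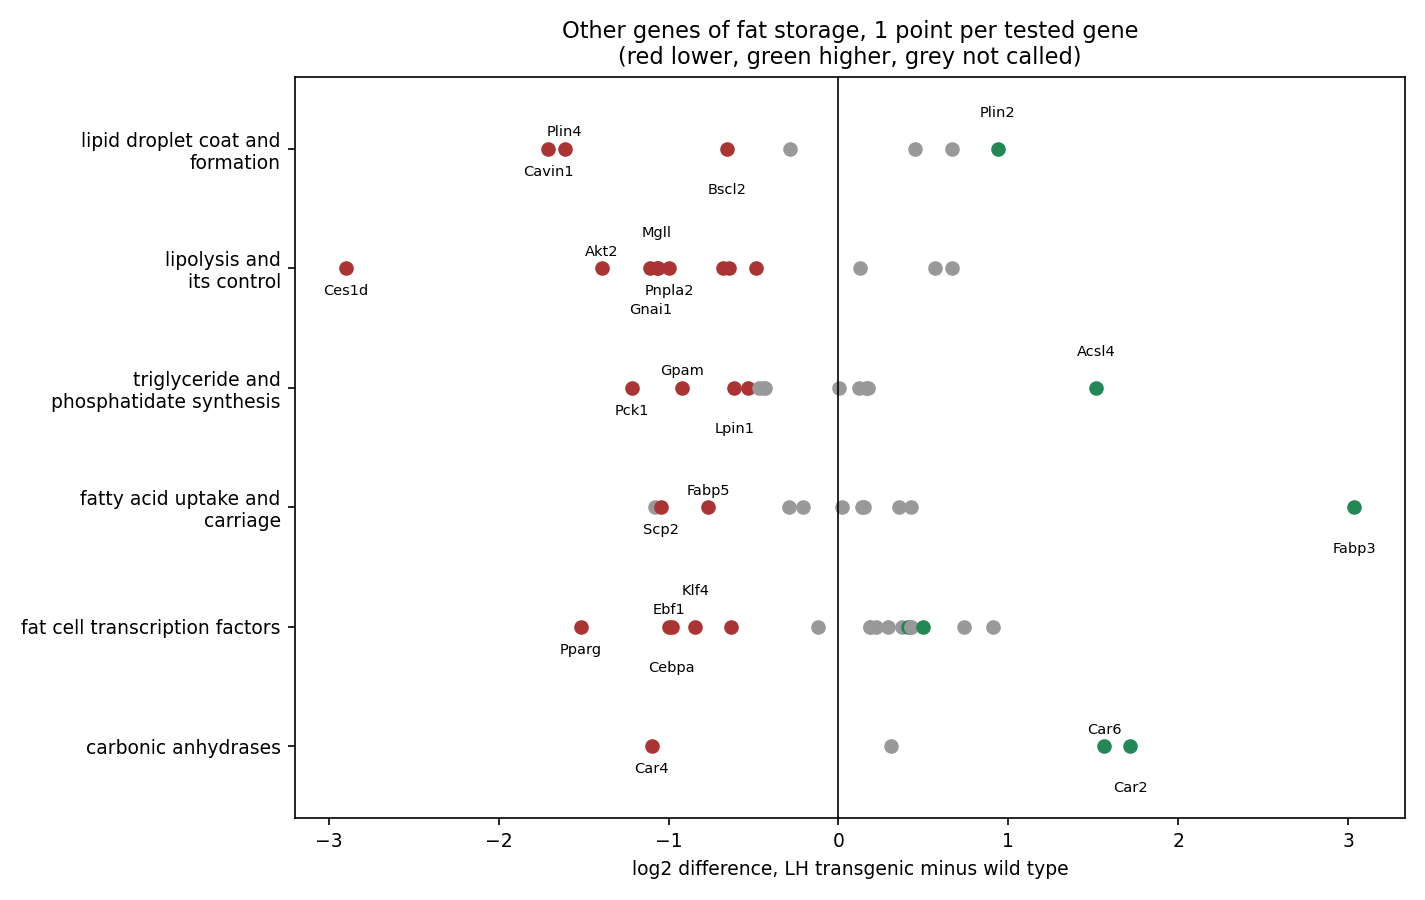
Log2 difference, LH transgenic minus wild type, of every tested gene in 6 lists outside the members, 1 point per gene by its brightest probe set, red where called lower, green where called higher and grey where not called. In the lipolysis list 9 of 12 genes were called lower, beside 11.6% of all tested genes. Plin2, Acsl4, Fabp3, Car2 and Car6 lie on the higher side.

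Of 17 tested transcription factors of fat cells, 5 fell, 2 rose and 10 were not called, with a median of 0.22. The shares over all tested genes were 11.6% lower and 9.93% higher. Pparg, the nuclear receptor that switches on most of the listed genes during fat cell formation, had 2999, 2785 and 2830 in wild type pools and 810, 877 and 1207 in LH transgenic pools. Its groups were far apart, and the mean fell from 2871 ± 113 to 965 ± 212 (log2 -1.52, adjusted p 0.000496). Cebpa, its partner in mature fat cells, fell from 29403 ± 5554 to 14992 ± 3565 (log2 -0.98, adjusted p 0.0084). Ebf1 (-0.997) and Klf4 (-0.84) fell too, Klf4 losing its call when any 1 wild type pool, LH transgenic pool 1 or LH transgenic pool 2 was left out (adjusted p 0.0593 to 0.112), with no filter (0.0651), with its probe sets averaged (-0.43, 0.118) or with muscle level as covariate (-0.39, 0.448). Ebf1 lost its call in the fit with muscle level as covariate (adjusted p 0.167). Without wild type pool 1 or 3, 3 of the factors fell and 0 rose, and 0 rose without LH transgenic pool 2, while 1 rose without LH transgenic pool 1 or 3. On the scale of the bacterial controls and with muscle level as covariate 0 rose.

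The 15 tested fat cell markers outside the list place the members. Of these, 12 fell and none rose, where 11.6% and 9.93% of all tested genes did. The markers had a median of -1.34 and values from -2.05 to -0.34, and 0 had an unadjusted limma p under 0.05 on the higher side. Pnpla2, Pck1, Pparg and Cebpa, all among those that fell, are also counted in the lists described above. Rbp4, a retinol carrier, fell from 8244.5 ± 310 to 1947 ± 390, and Slc2a4, the insulin-responsive glucose transporter, from 4508.5 ± 462 to 1225 ± 129. The adiponectin gene Adipoq was lowered from 48797 ± 2581.5 to 30148 ± 1314 (log2 -0.69, adjusted p 0.00201). Cidec lay within this range, with 4 of the 15 markers more negative, as did Lipe with 6, Dgat1 with 10, the brighter Gpd1 probe set with 12, and Cd36 and the brighter Lpl probe set with 14 each. Fabp4, Car3 and the dimmer probe sets of Gpd1 and Lpl had a difference above that of every one of the 15.

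The mean log2 level of the 15 markers was 13.08 to 13.35 in the wild type pools and 11.83 to 12.02 in the LH transgenic pools, and it was subtracted from each member on each array, which leaves the order of the differences as it was. Relative to this mean, Cidec and Lipe were lower in LH transgenic glands by 0.42 and 0.10 on the log2 scale. Lipe had 0.32, 0.57 and 0.61 in the wild type pools and 0.42, 0.51 and 0.27 in the LH transgenic pools, which overlap. Dgat1 was higher by 0.27, the brighter Gpd1 and Lpl probe sets by 0.62 and 0.70, Cd36 by 0.83, Fabp4 by 0.99 and Car3 by 1.37. Car3 had 1.89 to 2.26 in the wild type pools and 3.26 to 3.60 in the LH transgenic pools, without overlap. These relative values describe the arrays and carry no test, since the markers were chosen with results of these data known.

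The pools of a genotype differed by member. In the LH transgenic group pool 3 was the lowest pool for 6 of the 10 tested probe sets (Cidec, Lipe, both Gpd1 probe sets, Cd36 and Fabp4), pool 1 for 3 and pool 2 for 1. In the wild type group the lowest place fell to pool 1 for 4, pool 2 for 3 and pool 3 for 3. The spread relative to the mean was 23.6% for Cidec and 19.4% for Lipe in wild type, against 3.7% for Dgat1. In the LH transgenic group it was 22.8% for the brighter Gpd1 probe set and 2.64% for the brighter Lpl probe set.

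Markers of other cell types that can express members moved in the same comparison, where 11.6% of all tested genes fell and 9.93% rose. Of 13 endothelial markers 11 fell, with summed signals of 43725 to 50903 in wild type and 21234 to 24330 in LH transgenic pools. Of 12 macrophage markers 5 rose (48130 to 64745 against 82694 to 98082), and of 16 milk and alveolar markers 12 rose (323602 to 520875 against 733094 to 923074). Of 14 fibroblast and matrix markers 11 fell (177747 to 231804 against 115326 to 141482), and of 19 skeletal muscle markers 8 fell. The muscle count was 16 without LH transgenic pool 3, 3 without LH transgenic pool 1, 4 without wild type pool 3 and 5 without each of the other 3 pools, and 18 on the scale of the bacterial controls. On that scale, where 50.7% of all tested probe sets fell, 0 macrophage markers rose and 2 fell. Of the milk and alveolar markers, 5 rose and 1 fell there. With muscle level as covariate 0 macrophage and 4 milk and alveolar markers rose, and 7 endothelial and 4 fibroblast and matrix markers fell. Of 4 tested brown fat markers 1 fell and 0 rose. The count that fell was 0 to 2 when 1 pool was left out and 3 on the scale of the bacterial controls. Without LH transgenic pool 3, and with arrayWeights, 1 rose. Ucp1, the uncoupling protein that defines brown fat, had 167, 1248 and 3954 in wild type and 145, 216 and 961.5 in LH transgenic pools. Its groups overlapped, and it was not called (log2 -1.42, adjusted p 0.295). Cidea, of the same list, had the opposite sign and was not called either (log2 0.67, adjusted p 0.218). Both were named after their values were seen. Wild type pool 3, the highest for Ucp1, was also the highest wild type pool for Cidec, Lipe and Cd36. It was the lowest wild type pool for Fabp4, Dgat1 and the dimmer Gpd1 probe set, and the middle one for the remaining tested member probe sets. The part of these cell types in the results for the members was not tested. The mean level of the muscle markers was also entered into the fit as covariate. The same 5 member probe sets were then called lower, beside 5.35% of all tested probe sets. Their differences were -2.19 for Cidec, -1.64 for Lipe, -1.09 for Dgat1, -1.15 for the brighter Gpd1 probe set and -0.61 for the brighter Lpl probe set. Within a genotype the muscle level varied mainly through LH transgenic pool 3, so this adjustment rests largely on that 1 pool.

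**Figure D4:**
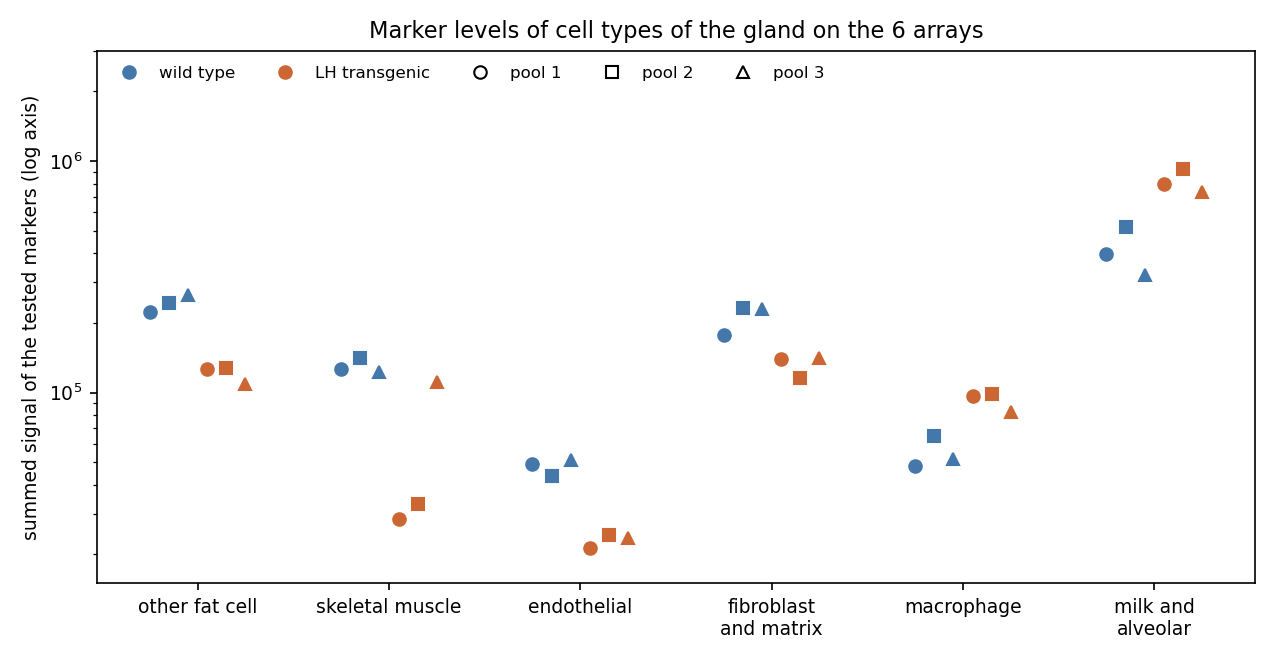
Summed signal (log axis) of the tested markers of each cell type on the 6 arrays, wild type in blue and LH transgenic in orange, with circles, squares and triangles for pools 1, 2 and 3. The fat cell sums are 221964 to 264696 in wild type and 108662 to 128160 in LH transgenic pools, and LH transgenic pool 3 lies near the wild type pools for skeletal muscle.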

How the data were processed

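Mammary gland RNA of 3 wild type and 3 LH transgenic pools was hybridised to Affymetrix arrays. The authors deposited 1 linear signal intensity per probe set and array, which the submitters' processing notes say came from MAS5; no version or genome build is stated in the labels. MAS5 scales every array to 1 target, so a shift of most genes one way would not show. Groups come from the source name in the labels, pool numbers are names in accession order, and the labels name no batch or pairing. The pools held different mice, so p-values measure the spread between pools.

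The table held 12488 probe sets, 66 of them controls, and 10833 named 1 gene (10817 of their gene identifiers were found in a GRCm38.p6 table, and 0 symbols changed). Values were taken as log2(signal + 80.0), 80.0 being the 20th percentile of all values. The 7455 probe sets whose mean reached 336.0, the 40th percentile over probe sets, were tested with limma 3.58.1 in R 4.3.3 (lmFit and eBayes with a trend, two-sided, no covariate), with Benjamini-Hochberg adjustment over all of them. The number of arrays limits the precision. The fit was tested on simulated data. Lists were counted by the brightest probe set of each gene. Every member was named, with up to 4 called genes per list by size of change and 11 preset genes, where measured. The members and lists were chosen with earlier results of these data known. The settings tried were normalization, pseudocount, filter, variance model, array weights, a muscle covariate, averaging of probe sets, and leaving out each array.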

Additional observations from a re-analysis of the deposited data

How the results depend on the processing

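Against 1586 probe sets called over the whole table and 5 member probe sets called lower, leaving out 1 array at a time gave 948 to 1635 and 4 to 6. In those fits 6.78% to 12% of all tested probe sets were called lower. The bacterial hybridisation controls as the scale gave 3982 called (3.09% of them higher, against 49.2%). There 50.7% of all tested probe sets and 9 member probe sets were called lower. The skeletal muscle covariate gave 720 called, and averaging the probe sets of each gene gave 2 members lower, where 11.2% of all genes were. Cidec and Lipe kept direction and call under all 18 other settings, with differences of -2.43 to -1.55 and -2.11 to -1.29. Each has 1 probe set, so the averaging of probe sets could not alter its values. Signs turned for the dimmer Lpl probe set (-0.40) and Car3 (-0.65) with the bacterial controls, for Car3 after quantile normalization (-0.22), for Acta1 with the muscle covariate (0.28 against -1.17), and for Pecam1 with the bacterial controls (-0.48 against 0.12). The cause was not tested, except that the muscle covariate holds Acta1 itself. Averaging mixes dim probe sets with bright ones. No paired analysis was possible because the labels give each array its own number and pair none. With 3 arrays per group, dim probe sets and small differences could not be resolved.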
